A study of Mus musculus with 8 samples.

Results

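The genes Egr1, Egr2, Egr3, Ier2, Ier3, Ier5, Btg2, Klf6, Zfp36 and Mcl1, a set of immediate early and early response genes, were followed over 240 min of tamoxifen in primary mouse keratinocytes, the cells that build the epidermis. They were taken as all probe sets on the array with one of these symbols alone, which gave 21 probe sets of 10 genes among 22626 probe sets and 12393 genes. Mcl1 had 6 probe sets, Ier5 and Klf6 had 3 each, Egr2 and Btg2 had 2 each and the other members 1 each. A probe set is a group of short probes read as one value, and probe sets whose name ends in x_at hold probes that may also bind other transcripts. All 8 arrays, in every group, came from cells infected with an empty retrovirus. The untreated group had 2 arrays, and tamoxifen had 1 array per time, at 20, 40, 60, 120, 180 and 240 min. Tamoxifen binds the estrogen receptor and can activate proteins engineered to carry part of it. Its dose, the mouse strain and the animals' age are not given here. Arrays of cells handled in the same way without tamoxifen at those times were not analysed here, so tamoxifen and handling cannot be told apart. Whether the arrays stem from separate cultures is not labelled, so a p-value here reflects the spread among these arrays alone, which may be technical.

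Immediate early genes are transcribed within minutes of a growth factor, stress or wounding signal, without new protein synthesis, mostly through the ERK kinase cascade acting on serum response factor (SRF), which binds a CArG box, and on its ETS partners. Many of their transcripts are short-lived, so levels return quickly once the signal ends. In keratinocytes such genes respond to EGF receptor ligands, ultraviolet light and scratch wounds.

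Levels are log2(intensity + 16), and a difference of 1 on that scale is a 2-fold change for a bright probe set and a larger one for a dim probe set. The keratinocyte label was checked against 12 of 14 keratinocyte marker genes that had a probe set: all 12 lay above the brightness limit (a mean log2 level of 7.04), with Krt5 at 14.07 and 14.11 and Krt14 at 14.27 and 14.29 in the untreated arrays. All 7 endothelial markers and 6 of 11 leukocyte and Langerhans cell markers, among them Ptprc and Cd207, lay below the limit. The 5 leukocyte and Langerhans cell markers above it were Cd3e, H2-Ab1, H2-Aa, H2-Eb1 and Itgax. In the untreated arrays Cd3e was at 8.02 and 8.03, H2-Ab1 at 7.86 and 8.08 and Itgax, the dimmest, at 7.09 and 7.15. Of 11 fibroblast markers, 9 lay above the limit, and Sparc was the brightest, at 10.59 and 10.62 in the untreated arrays. The rest of these 9 ran there from Pdgfrb (7.01 and 7.13) to Col1a2 (8.10 and 8.14). Dcn and Lum lay below the limit. All 6 melanocyte markers lay above it, with Dct, a pigment synthesis enzyme, at 11.96 and 11.84 in the untreated arrays. The untreated arrays differed in 29 genes of G2 and M phase, whose mean level was 9.54 in untreated replicate 1 and 8.78 in untreated replicate 2. Over the tamoxifen arrays that mean ran from 8.79 to 9.44.

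Promoters are shown for 6 of the 7 members in the promoter table, to set their motifs beside their courses. That of Ier5, in which a GC box was the one motif found, is left out. Each stretch runs from 180 to 21 bases before the transcription start in RefSeq (GRCm38.p6), 5′ to 3′ on the gene's own strand. Capitals mark letters of any motif searched.
Egr2 (chr10:67537386-67537545, plus strand): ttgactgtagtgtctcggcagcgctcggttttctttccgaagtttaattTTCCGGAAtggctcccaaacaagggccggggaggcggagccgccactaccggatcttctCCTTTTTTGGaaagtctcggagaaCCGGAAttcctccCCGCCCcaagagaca
Klf6 (chr13:5861309-5861468, plus strand): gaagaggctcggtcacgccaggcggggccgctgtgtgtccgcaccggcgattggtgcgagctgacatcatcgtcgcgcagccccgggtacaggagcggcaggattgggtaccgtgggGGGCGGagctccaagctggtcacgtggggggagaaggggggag
Ier3 (chr17:35821533-35821692, plus strand): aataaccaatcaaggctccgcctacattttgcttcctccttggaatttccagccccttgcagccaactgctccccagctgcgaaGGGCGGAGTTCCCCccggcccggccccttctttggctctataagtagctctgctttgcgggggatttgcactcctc
Btg2 (chr1:134079176-134079335, minus strand): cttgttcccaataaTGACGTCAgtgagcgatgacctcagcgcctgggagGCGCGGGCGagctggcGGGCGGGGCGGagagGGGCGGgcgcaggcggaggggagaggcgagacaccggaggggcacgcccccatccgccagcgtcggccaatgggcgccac
Zfp36 (chr7:28379249-28379408, minus strand): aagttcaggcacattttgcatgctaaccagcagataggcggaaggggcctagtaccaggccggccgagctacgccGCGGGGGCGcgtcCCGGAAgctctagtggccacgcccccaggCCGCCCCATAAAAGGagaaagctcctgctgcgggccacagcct
Mcl1 (chr3:95658541-95658700, plus strand): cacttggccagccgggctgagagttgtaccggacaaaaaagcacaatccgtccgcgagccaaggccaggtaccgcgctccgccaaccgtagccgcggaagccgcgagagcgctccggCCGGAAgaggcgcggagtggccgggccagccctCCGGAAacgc
Motifs searched on both strands were the CArG box and the NF-kB site, the EGR site GCGNGGGCG, the cyclic AMP response element TGACGTCA, the ETS site CCGGAA, the AP-1 site TGANTCA and the GC box GGGCGG. The table held promoters of 7 members, and those of Egr1, Egr3 and Ier2 were not in it. In windows from 250 bases before to 50 after the start, a CArG box was found for Egr2 and Zfp36, against 1.63% of all 32851 windows. The Egr2 box lay 72 bases before the start and the Zfp36 box 58 bases before it, where it shared a base with a GC box on the other strand. Within the Egr2 window a pair of ETS sites on opposite strands overlapped, as did a pair of GC boxes in the Btg2 window. For Egr2, with 5 starts in the table, the first start whose window holds a CArG box was chosen after the search. A member was counted when any of its windows held a motif, which favours Egr2, whereas the shares of all windows are per window. An ETS site was found for Egr2, Mcl1 and Zfp36 (14.9% of windows), an EGR site for Btg2 and Zfp36 (5.55%), a cyclic AMP response element for Btg2 (1.79%) and an NF-kB site for Ier3 (4.51%), overlapping its GC box. All 7 held a GC box (35.7%), and none held the AP-1 site (7.81%). A match of letters is a description of the window and was not tested against the levels.

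The Egr genes encode zinc finger transcription factors. Egr1, the member best known as a sensor of growth and stress signals (probe set 1417065_at), had log2 levels of 9.60 and 9.56 in the untreated arrays, 9.93, 9.31 and 9.41 at 20, 40 and 60 min, and 9.07, 9.61 and 10.01 at 120, 180 and 240 min. It was thus above both untreated arrays at 20 and 240 min and below both at 40, 60 and 120 min. From highest to lowest the order was 240, 20 and 180 min, untreated replicate 1, untreated replicate 2, then 60, 40 and 120 min. The step from 180 min to untreated replicate 1 was 0.01, less than the 0.04 between the untreated arrays, so those neighbours are not ordered. That yardstick rests on only this pair of arrays, so larger steps are not shown to be ordered by it. The whole range was 0.94, or 1.95-fold between the 120 and 240 min intensities. That range was the widest of any member, and 99.3% of all probe sets tested had a smaller one. Because it crossed the untreated level in both windows, the pooled differences were near 0: -0.03 ± 0.25 (SE) at 20 to 60 min (limma, adjusted p = 0.959) and -0.02 ± 0.25 at 120 to 240 min (adjusted p = 1.00). The sign of each changed when single arrays were left out, with values from -0.22 to 0.09 and from -0.24 to 0.23 over the alternatives.

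Egr2, which acts in hindbrain and Schwann cell development and is also induced by serum, had one probe set above the brightness limit (1427683_at). Its levels were 7.24 and 7.33 in the untreated arrays, 7.44, 7.46 and 7.60 at 20, 40 and 60 min and 7.17, 7.30 and 7.20 at 120, 180 and 240 min. All 3 early arrays were above both untreated arrays and all 3 late arrays, while late and untreated arrays overlapped. The dimmer probe set, 1427682_a_at, which lay below the limit and was not tested, gave differences of 0.24 and -0.08 from untreated in the early and late windows, against 0.22 and -0.06 for the tested one. With levels this close to the limit, log2 differences understate the change.

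Egr3, a relative that Egr1 itself can induce, was at 8.59 and 8.90 in the untreated arrays, 8.83, 8.77 and 8.77 in the early arrays and 8.80, 8.72 and 8.73 in the late arrays. Every tamoxifen value lay between the untreated values. The untreated arrays were 0.31 apart, more than any step between neighbouring arrays, so no order can be read.

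**Figure D1:**
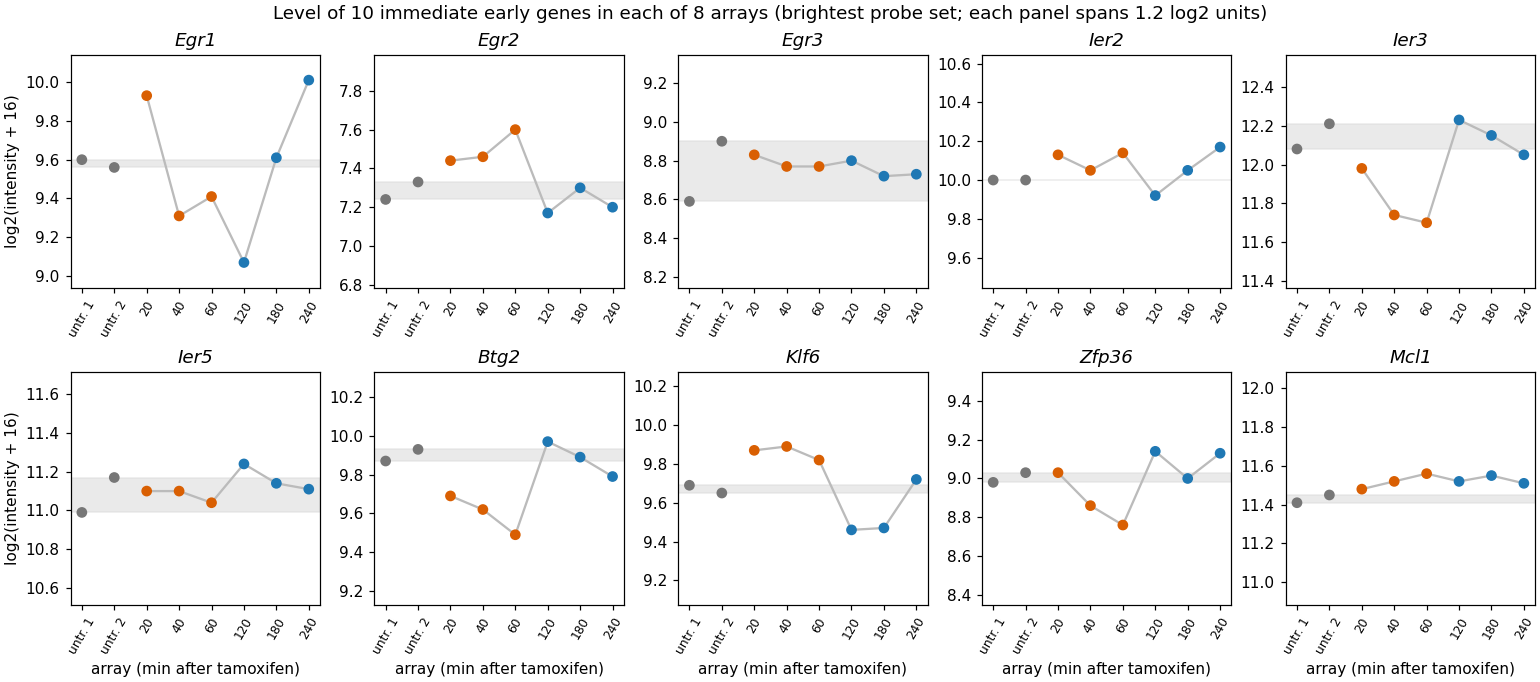
Log2(intensity + 16) of the brightest probe set of each gene (y) in each array (x); grey points are the 2 untreated arrays, orange points 20, 40 and 60 min and blue points 120, 180 and 240 min, with 1 array per point, and the grey band spans the untreated arrays. Ier3 and Btg2 lie below the band in every early array and Egr2 and Klf6 above it, while Egr1 falls on both sides, from 9.07 at 120 min to 10.01 at 240 min.

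The Ier genes share a name for their rapid induction. Ier3, a regulator of survival and of ERK and NF-kB signalling (1419647_a_at), was at 12.08 and 12.21 in the untreated arrays. It was at 11.98, 11.74 and 11.70 at 20, 40 and 60 min and at 12.23, 12.15 and 12.05 at 120, 180 and 240 min. The 3 early arrays were below every untreated and every late array, and the lowest values were those at 60 and 40 min, -0.45 and -0.41 from the untreated mean. The early window differed from untreated by -0.34 ± 0.09 (SE; limma, adjusted p = 0.342) and the late from the early window by 0.34 ± 0.08 (adjusted p = 0.197).

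Ier2, a nuclear protein of the same rapid class as Egr1 (1416442_at), was at 10 in both untreated arrays, 10.13, 10.05 and 10.14 in the early arrays and 9.92, 10.05 and 10.17 in the late arrays. It was higher than untreated in all arrays except 120 min, by at most 0.17. The early difference, 0.10 ± 0.07 (SE), did not pass (limma, adjusted p = 0.519). As for Egr1, its lowest value was at 120 min and its highest at 240 min.

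Ier5, which encodes a regulator of heat shock factor and PP2A activity (brightest probe set 1417612_at), was at 10.99 and 11.17 in the untreated arrays. It was at 11.10, 11.10 and 11.04 in the early arrays and 11.24, 11.14 and 11.11 in the late arrays. Each late array was above each early one, but the lowest late and highest early arrays were 0.01 apart, against 0.18 between the untreated arrays. The other probe sets, 1417613_at and 1460009_at, differed between the windows by 0.15 ± 0.07 and 0.00 ± 0.05 (SE). No array stood apart from the rest in all 3 probe sets, though each had its highest value at 120 min.

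Btg2, an antiproliferative gene that p53 can induce and whose protein recruits the CCR4-NOT deadenylase, was at 9.87 and 9.93 in the untreated arrays (1416250_at). Its levels were 9.69, 9.62 and 9.49 at 20, 40 and 60 min and 9.97, 9.89 and 9.79 at 120, 180 and 240 min. As with Ier3, every early array was below every untreated and late array, with the lowest value at 60 min. The difference from untreated was -0.29 ± 0.07 (SE; limma, adjusted p = 0.342), and between the windows 0.28 ± 0.07 (adjusted p = 0.196). The second probe set, 1448272_at, gave -0.15 ± 0.07 and 0.22 ± 0.07, and its early and untreated arrays overlapped.

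Zfp36 encodes tristetraprolin, which binds AU-rich elements and speeds the decay of cytokine and immediate early transcripts (1452519_a_at). It was at 8.98 and 9.03 in the untreated arrays, 9.03, 8.86 and 8.76 in the early arrays and 9.14, 9.0 and 9.13 in the late arrays. The 40 and 60 min arrays were below all others, and the 20 min array was level with untreated replicate 2. The differences were -0.12 ± 0.08 (SE) from untreated and 0.21 ± 0.07 between the windows (limma, adjusted p = 0.506 and 0.220).

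Klf6, a Krüppel-like zinc finger transcription factor induced by injury, was at 9.69 and 9.65 in the untreated arrays (brightest probe set 1433508_at). It was at 9.87, 9.89 and 9.82 at 20, 40 and 60 min and at 9.46, 9.47 and 9.72 at 120, 180 and 240 min. The early arrays were all above the untreated arrays, the 120 and 180 min arrays were below them, and the 240 min array was above them by 0.03. In all 3 Klf6 probe sets every early array was above every untreated and every late array, though in 1418280_at the lowest early and highest late arrays were at 7.77 and 7.76 and in 1427742_a_at at 9.24 and 9.22. Their early differences were 0.19 ± 0.08, 0.17 ± 0.08 and 0.18 ± 0.10 (SE; limma, adjusted p = 0.358, 0.370 and 0.433), and the late minus early differences -0.31 ± 0.07, -0.19 ± 0.07 and -0.26 ± 0.09 (adjusted p = 0.196, 0.221 and 0.217).

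Mcl1 encodes a short-lived survival protein of the BCL-2 family. Its 6 probe sets did not follow one course. In the brightest, 1448503_at, levels were 11.41 and 11.45 in the untreated arrays, 11.48, 11.52 and 11.56 in the early arrays and 11.52, 11.55 and 11.51 in the late arrays. All tamoxifen arrays were above both untreated arrays, by little: the difference of all 6 from untreated was 0.10 ± 0.04 (SE; limma, adjusted p = 0.974). In 1437527_x_at, levels were 10.43 and 10.42 in the untreated arrays, 10.33, 10.26 and 10.23 in the early arrays and 10.61, 10.61 and 10.52 in the late arrays. There the windows did not overlap, with early below untreated and untreated below late. The probe sets 1416880_at, 1456243_x_at and 1456381_x_at also had every early array below every untreated and late array, with late minus early differences of 0.26 ± 0.05, 0.24 ± 0.05 and 0.24 ± 0.06, against 0.31 ± 0.05 for 1437527_x_at (SE; adjusted p = 0.187, 0.196, 0.197 and 0.180). For 1448503_at and 1416881_at that difference was 0.01 ± 0.04 and 0.06 ± 0.06 (adjusted p = 0.903 and 0.636). The array files do not show which part of the transcript each Mcl1 probe set reads.

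**Figure D2:**
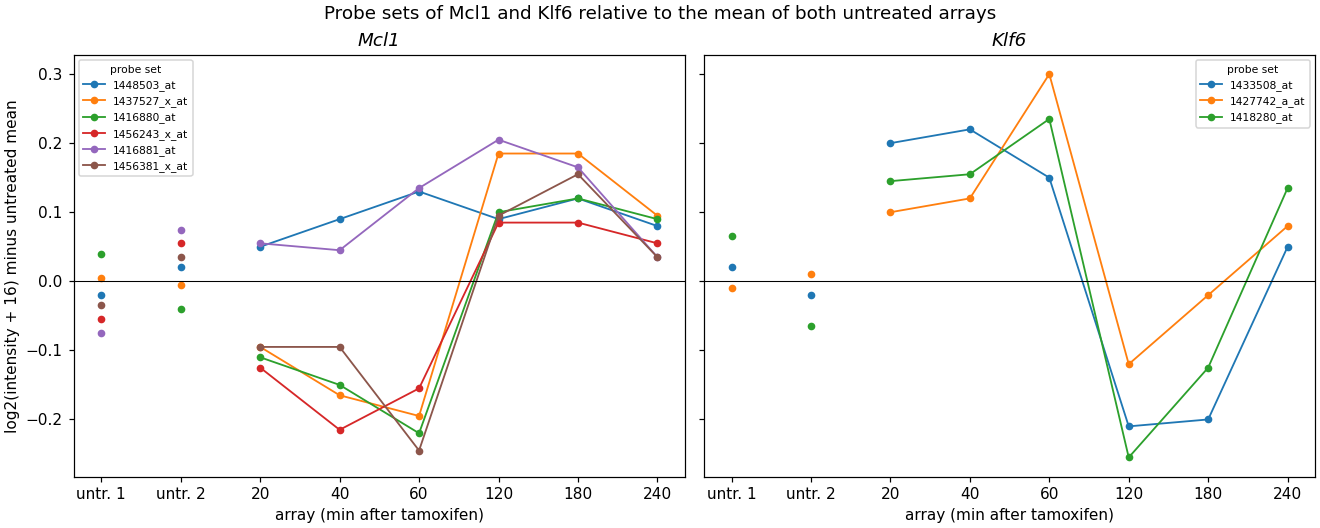
Level of each probe set of Mcl1 (left) and Klf6 (right) minus its mean over the 2 untreated arrays (y, log2), by array (x); points are single arrays and lines join the tamoxifen arrays. Of the 6 Mcl1 probe sets, 4 lie below 0 at 20 to 60 min and above 0 later while 1448503_at and 1416881_at stay above 0, and all 3 Klf6 probe sets lie above 0 at 20 to 60 min and below 0 at 120 and 180 min.

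The comparison of the early window (20, 40 and 60 min) with untreated asks which members differ in the first hour. Of the 20 member probe sets above the brightness limit, none passed in limma at an adjusted p under 0.05 (0% of 15838 probe sets tested did), and the smallest adjusted p over all probe sets was 0.342. At an unadjusted p under 0.05 there were 7 member probe sets, against 13.6% of all. Of these, Egr2 and Klf6 were higher (2 probe sets, against 6.42% of all) and Ier3, Btg2 and 3 of Mcl1 were lower (5 probe sets, against 7.15%). Taking the brightest probe set of each of the 10 genes, the count was 4, against 14.2% of 9294 genes taken in the same way. All 3 early arrays were above both untreated arrays in 6 member probe sets, of Egr2, Ier2, Klf6 (3) and Mcl1 (15.8% of all), and below both in 6, of Ier3, Btg2 and Mcl1 (4) (19.5% of all). The median difference of the 20 was -0.01 and that of all probe sets -0.012. With each array's mean of the G2 and M genes as a covariate, Ier3 (-0.33, adjusted p = 0.0341) and Btg2 (-0.29, adjusted p = 0.0368) passed, with 3.90% of all probe sets. Over all alternatives the adjusted p of Ier3 ran from 0.0341 to 0.998 and that of Btg2 from 0.0368 to 0.998. Without untreated replicate 2, the share of all probe sets at an unadjusted p under 0.05 was 3.81%.

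Between the late window (120, 180 and 240 min) and untreated the pooled differences of the members were small. Single arrays could lie further off, as for Egr1, at -0.51 (120 min) and 0.43 (240 min) from the untreated mean. No member probe set passed in limma (0% of all did), and 1 of 20 had an unadjusted p under 0.05, the Mcl1 probe set 1437527_x_at (0.16 ± 0.05, SE), against 3.28% of all (1.25% higher and 2.03% lower). All 3 late arrays were above both untreated arrays in 3 member probe sets, all of Mcl1 (9.16% of all), and below both in 0 (8.62% of all). The median difference was 0.06 over the member probe sets, 0 over the brightest probe set of each member gene and 0.005 over all probe sets. Both window comparisons use the same 2 untreated arrays. For all 6 tamoxifen arrays together, none passed (0% of all), and only Mcl1, at 1448503_at, had an unadjusted p under 0.05, against 3.58% of all (1.44% higher and 2.14% lower).

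The late and early windows have 3 arrays each, at different times and not replicates, and their comparison uses the same 3 early arrays as that of the early window with untreated, so the signs in these are not independent. No member probe set passed between them in limma (0% of all did), with a smallest adjusted p of 0.0998 over all probe sets. At an unadjusted p under 0.05 there were 12 of 20, against 18.4% of all. The 8 that were higher later (10.9% of all) were those of Ier3, Btg2 (2), Zfp36 and Mcl1 (4), and the 4 that were lower later (7.50% of all) were those of Egr2 and Klf6 (3). By brightest probe set they were 5 of 10 genes, with Ier3, Btg2 and Zfp36 higher and Egr2 and Klf6 lower, against 19.8% of all genes (12.2% higher and 7.56% lower). Probe sets of one gene share its transcript and are not independent. In 8 probe sets, those of Ier3, Btg2 (2), Mcl1 (4) and Ier5 (1417612_at), every late array was above every early one (12.3% of all). The late and early arrays of Zfp36 overlapped. In 4, those of Egr2 and Klf6 (3), every late array was below (8.53%).

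**Figure D3:**
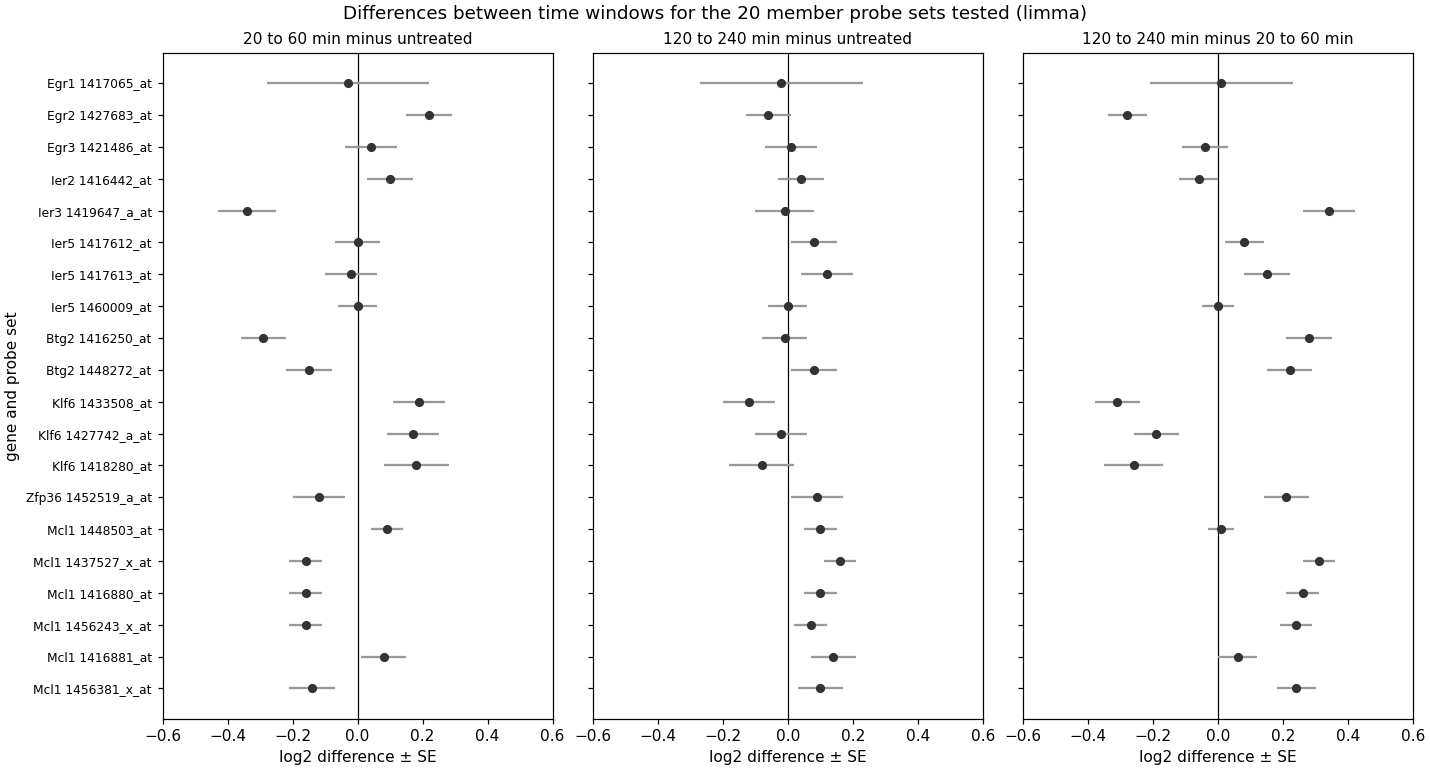
Log2 difference with its SE from limma (x) for each of the 20 member probe sets tested (y) in the 3 comparisons of windows. The early differences of Ier3 and Btg2 (-0.34 and -0.29) and of Egr2 and Klf6 (0.22 and 0.19) are in the left panel, and their late minus early differences (0.34, 0.28, -0.28 and -0.31) in the right, which uses the same 3 early arrays.

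**Figure D4:**
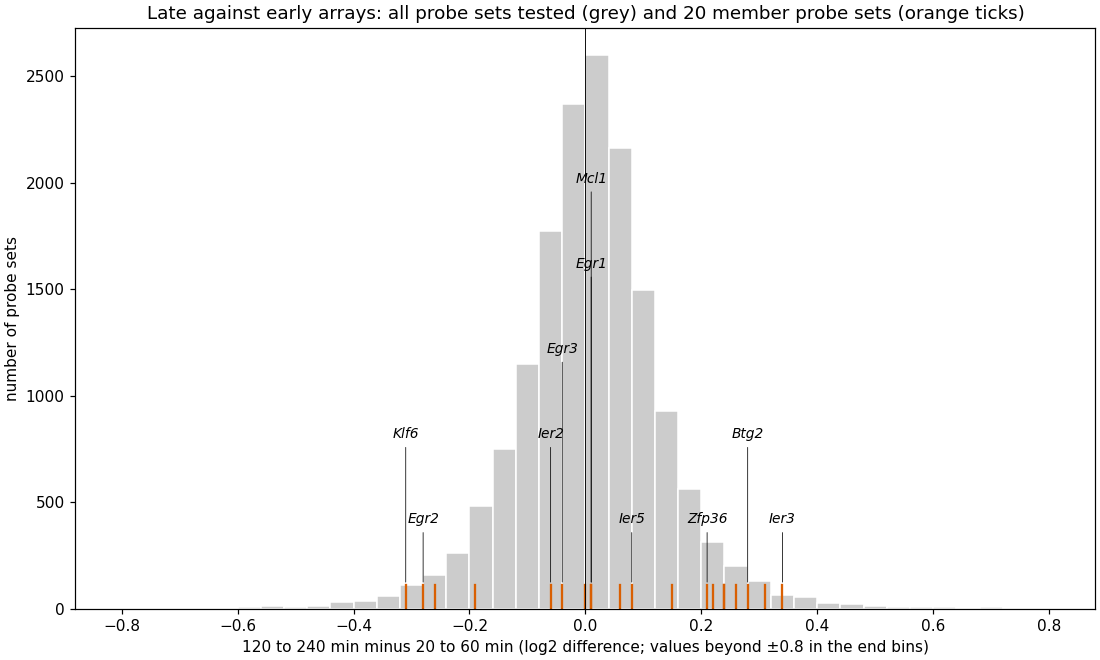
Number of probe sets (y) by log2 difference between 120 to 240 min and 20 to 60 min (x), for all 15838 probe sets tested in grey, with orange ticks at the 20 member probe sets and names at the brightest of each gene. Members run from -0.31 for Klf6 to 0.34 for Ier3, within the spread of all probe sets.

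Which member probe sets passed between the windows depended on the setting. Without the 240 min array 9 of 20 passed (9.04% of all), those of Ier3, Btg2 (1), Mcl1 (4), Egr2 and Klf6 (2), where Klf6 differed by -0.39. With array weights, which did not fully converge, 12 passed (30.6% of all). When the G2 and M phase mean was a covariate, 7 did (3.38%). With the S phase covariate 0 members passed (0.00631% of all, 1 probe set). The adjusted p of Klf6 ran from 0.00469 to 0.546 over the alternatives and that of Ier3 from 0.00634 to 0.546. That of Btg2 ran from 0.00553 to 0.546 and that of Egr2 from 0.0129 to 0.546, with all 4 lowest values from array weights. The direction of these 4 differences was the same in all alternatives run. Leaving out an array could not have reversed it, because the late and early arrays of these probe sets did not overlap. Of all probe sets, 54.3% were higher and 45.7% lower in the late than in the early window. Of the cell cycle genes, 26 of 29 of G2 and M phase and 21 of 25 of S phase were lower there. The late arrays were not alike in this. The G2 and M phase mean was 9.02 to 9.34 in early arrays and 8.79, 8.88 and 9.44 at 120, 180 and 240 min. That of S phase was 9.36 to 9.62 and then 9.19, 9.24 and 9.58. Of the markers above the limit, 8 of 9 fibroblast, 5 of 5 leukocyte and Langerhans cell, 7 of 12 keratinocyte and 4 of 6 melanocyte genes were higher in the late window. The mean level of the fibroblast markers was 7.91 to 7.96 in untreated, 7.83 to 7.87 in early and 7.91 to 8.03 in late arrays. That of the leukocyte and Langerhans cell markers was 7.59 to 7.71, 7.48 to 7.52 and 7.58 to 7.75. The part of these cell types and of the cell cycle in the members' differences was not tested beyond the covariates. In such bulk RNA, fewer cells of a type and less RNA per cell cannot be told apart.

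At single times no member probe set lay at least 0.5 from both untreated arrays in one direction. The share of all probe sets that did was largest at 60 min, 0.265% above and 0.436% below. Above and below, it was 0.00631% and 0.0505% at 20 min, 0.0379% and 0.0884% at 40 min, 0.0316% and 0.0189% at 120 min, 0.0126% and 0.0126% at 180 min, and 0.0253% and 0.0695% at 240 min. The nearest member was Egr1 at 120 min, at -0.51 from the untreated mean. Of the 20 member probe sets, 8 had their highest and 6 their lowest value at 120 min, against 20.6% and 16.8% of all probe sets. At 60 min 4 had their highest and 7 their lowest value, against 23.3% and 16.7%. No member had its highest value at 20 min, where 4.41% of all probe sets did. Over the 8 arrays the members spanned a median range of 0.38, against 0.23 for all probe sets tested.

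Other immediate early genes were taken from lists of transcription factors and of effectors. No gene of either list passed in limma in any of the 4 comparisons, as for 0% of all probe sets. By the brightest probe set of each of 9294 genes, 6.78% of all genes were higher and 7.43% lower at an unadjusted p under 0.05 at 20 to 60 min, and 12.2% higher and 7.56% lower between the windows. Of 21 transcription factor genes above the limit, 1 had an unadjusted p under 0.05 at 20 to 60 min, Jun, a subunit of AP-1 (0.40 ± 0.09, SE), and the list median was 0.01. The next by p were Srf itself (0.16 ± 0.08), the stress factor gene Atf3 (0.17 ± 0.09) and Nr4a3 (-0.11 ± 0.06). Between the windows 4 were lower at that level and none higher: Jun (-0.32 ± 0.08), Srf (-0.21 ± 0.07), Myc (-0.17 ± 0.06) and Fosl1 (-0.23 ± 0.08).

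Of 23 effector genes above the limit, 4 were higher and 1 lower at an unadjusted p under 0.05 at 20 to 60 min (6.78% and 7.43% of all genes), with a median of 0.03. Those with the smallest p were Ccn2, a matrix protein gene driven by YAP and SRF (0.67 ± 0.15, SE), Nfkbia, the NF-kB inhibitor (-0.28 ± 0.07), the ERK and p38 phosphatase gene Dusp1 (0.24 ± 0.06) and Errfi1, an EGF receptor inhibitor (0.23 ± 0.08). Between the windows 3 were higher and 4 lower (12.2% and 7.56% of all genes), among them Ptgs2, the inducible cyclooxygenase (-0.48 ± 0.11), Ccn2 (-0.44 ± 0.13), the kinase gene Sgk1 (0.34 ± 0.11) and Nfkbia (0.17 ± 0.06).

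Among 13 partners and relatives of the members above the limit, 1 was higher and 2 lower at an unadjusted p under 0.05 at 20 to 60 min (6.78% and 7.43% of all genes). Zfp36l1, the relative of Zfp36, was at -0.38 ± 0.13 (SE), Tob1, a relative of Btg2, at -0.22 ± 0.09 and Klf7 at 0.18 ± 0.07. Between the windows 4 were higher, among them Zfp36l1 (0.40 ± 0.12), Tob1 (0.22 ± 0.08) and the deadenylase gene Cnot7 (0.15 ± 0.05), and Klf7 was lower (-0.19 ± 0.06), against 12.2% and 7.56% of all genes. The list median was 0.02 early and -0.01 between the windows, and no gene passed after adjustment.

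The genes whose courses were most like those of the widest-ranging members were found by the root mean square difference between log2 profiles over the 8 arrays, each centred on its mean, among 9284 other genes. For Ier3 they were Gcnt2 (0.034), Abr (0.040), Plod2 (0.044), Paip2b (0.052) and Pdia4 (0.052), against a median of 0.191 over all genes. For Egr1 the nearest were Xist (0.165), Cldnd1 (0.168), Pfkl (0.174), Zfp36l2 (0.175) and Galnt7 (0.179), against a median of 0.302. All of these, like Egr1, had their lowest level at 120 min and their highest at 240 min. The measure also counts the size of the changes, so a gene of similar course but smaller range than Egr1 scores as distant. The arrays are the same for both genes of each pair and share any effect of an array.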

How the data were processed

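Biotinylated cRNA from Trizol-extracted RNA was read on Affymetrix arrays, per the labels' protocols. The deposited values are linear intensities of 22690 probe sets, with array medians from 192 to 198. The authors' probe summary and scaling are not given in the sources used here. The values were used without further scaling, as log2(intensity + 16). Precision is limited by the number of arrays. Symbols were taken from the platform annotation (20380 probe sets with 1 symbol, 691 with several, 1555 unnamed here, 64 controls left out), and 20351 of the first matched RefSeq (GRCm38.p6) by Entrez identifier.

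Groups followed the sample titles, although every sample's description mentions tamoxifen. Dropping the dimmest 30% of probe sets by mean level kept 15838 and left 1 member probe set untested. Tests used limma 3.58.1 in R 4.3.3 (lmFit, eBayes), with Benjamini-Hochberg adjustment over all 15838 and a threshold of 0.05. Because each time has 1 array, times were pooled into windows, and the spread within a window holds differences between times. One fit had 3 windows (2, 3 and 3 arrays) and another 2 groups (2 and 6).

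Alternatives were other pseudocounts, filters and normalizations, 1 probe set per gene, array weights, cell cycle covariates and leaving out each array. Named genes are all members and up to 4 of each related list with the smallest p. For the 2 members of widest range, the 5 genes with the most similar profile are named too. The members and lists were chosen with earlier results of these data known.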

Additional observations from a re-analysis of the deposited data

How the results depend on the processing

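Counts at an adjusted p under 0.05 (limma) were 0 in all 4 comparisons. At 20 to 60 min the G2 and M phase covariate gave 617 probe sets and 22.8% at an unadjusted p under 0.05, against 13.6%. At 120 to 240 min, array weights, the G2 and M phase covariate and the S phase covariate gave 1 probe set each and 10.1%, 5.80% and 5.81%, against 3.28%. Between the windows, array weights gave 4847 probe sets and 43.7%, against 18.4%, the G2 and M phase covariate 536 and the S phase covariate 1. For all tamoxifen arrays the same 3 settings gave 6.01%, 7.43% and 6.96%, against 3.58%. The array weights did not fully converge. Leaving out each array gave 0 to 1 probe sets and 3.81% to 17.7% at 20 to 60 min, 0 to 1 and 2.10% to 5.50% at 120 to 240 min, 0 to 1432 and 8.94% to 29.7% between the windows, and 0 to 1 and 1.71% to 6.80% for all tamoxifen arrays. The count of 1432 was without 240 min. Shares moved over 1.5 times were 3.81% without untreated replicate 2, 8.78% without 40 min and 7.87% without 60 min for the early window, and 2.10% without 180 min and 5.50% without 240 min for the late window. Between the windows they were 10.2%, 8.94%, 9.89% and 29.7% when the array at 40, 120, 180 or 240 min, in that order, was left out. For all tamoxifen arrays they were 1.71% without untreated replicate 2 and 6.80% without 120 min.

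Among members, differences near 0 changed sign. At 120 to 240 min, Egr1 was at 0.01 with array weights, 0.02 with the G2 and M phase covariate and 0.01 with the S phase covariate. Egr2 was at 0.00 with array weights, and Egr3 at 0.00 after quantile normalization and -0.02 with array weights and each covariate. Ier3 was at 0.00 after quantile normalization and with array weights and at 0.01 after median centring, where Btg2 was at 0.00. For all tamoxifen arrays Egr1 was at 0.12 with array weights. Leaving out single arrays gave ranges that cross or reach 0: at 20 to 60 min -0.22 to 0.09 for Egr1, -0.11 to 0.20 for Egr3 and -0.09 to 0.09 for Ier5. At 120 to 240 min it gave -0.24 to 0.23 for Egr1, -0.15 to 0.16 for Egr3, -0.02 to 0.11 for Ier2, -0.07 to 0.06 for Ier3, 0.00 to 0.17 for Ier5 and -0.05 to 0.04 for Btg2. Between the windows it gave -0.21 to 0.26 for Egr1, -0.12 to 0.00 for Ier2 and -0.01 to 0.03 for Mcl1. For all tamoxifen arrays it gave -0.12 to 0.07 for Egr1, -0.13 to 0.18 for Egr3, -0.05 to 0.13 for Ier5, 0.00 to 0.08 for Klf6 and -0.05 to 0.03 for Zfp36. The cause was not tested. No paired analysis was possible because the labels give no replicate numbers shared between groups. With 1 array per time, no change at a single time can be tested.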

Other observations

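Of 13 genes of the BCL-2 family above the brightness limit, none had an unadjusted p under 0.05 at 20 to 60 min or at 120 to 240 min against untreated, and none passed after adjustment (limma). The mean level of the list was 8.61 to 8.66 over all 8 arrays. Between the windows 1 was lower at an unadjusted p under 0.05, against 7.56% of all genes. It was Bok, a relative of Bax (-0.32 ± 0.11, SE; adjusted p = 0.207).

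Of 11 genes of the ERK cascade and of SRF, ETS and CREB factors above the limit, 3 were lower at an unadjusted p under 0.05 at 20 to 60 min and none higher, against 7.43% and 6.78% of all genes, and none passed after adjustment (limma). They were the SRF partner genes Elk1 (-0.24 ± 0.06, SE) and Elk3 (-0.42 ± 0.15) and the kinase gene Map2k1 (-0.17 ± 0.08). Between the windows, Elk3 (0.53 ± 0.13) and Elk1 (0.14 ± 0.05) were higher at that level, against 12.2% of all genes. The list as a whole was on both sides of 0 early, with 5 genes above, 6 below and a median of 0. Its mean level was 9.18 to 9.19 in untreated, 9.08 to 9.14 in early and 9.18 to 9.22 in late arrays.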
